A study of Mus musculus with 4 samples.

Results

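The 9 genes described here encode nuclear hormone receptors of T cells: the retinoic acid receptors Rara and Rarg, the retinoid X receptors Rxra and Rxrb, the vitamin D receptor Vdr, the glucocorticoid receptor Nr3c1, the liver X receptor Nr1h2, the fatty acid sensor Ppard and the oestrogen receptor Esr1. They were taken by symbol from the deposited expression table, where all 9 were present among 21705 listed genes. The table holds 4 RNA-seq libraries of C57bl/6 splenic T cells sorted as CD4 or CD8 cells, 1 library per group. One CD4 and one CD8 library were taken on the day of an allogeneic transplant, a graft between genetically different individuals, and their titles carry the word Donor. The other pair was taken later, on day 14 by the sample characteristics and on day 12 by the titles, and is called after transplant here. Each library came from 5 mice pooled before the sort. The labels give no further allele or agent for any group, and they do not say whether the later cells were all of donor origin. The series title concerns the aryl hydrocarbon receptor (AhR) in acute graft-versus-host disease. With 1 library per group no difference has a replicate check, so no test was made. Intervals cover counting error only. All 4 samples also carry innate lymphoid cells as their labelled source, at odds with the T cell label. Transcripts of Cd3e, which T cells need for antigen receptor signalling, were at 5272 on the earlier and 4272 on the later day in CD4, and at 5330.2 and 4807 in CD8. The libraries held between 9873852 and 23633545 estimated reads, with the CD8 library after transplant the shallowest.

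Nuclear receptors are transcription factors whose activity is set by small fat-soluble ligands. Rara, Rarg, Vdr, Nr1h2 and Ppard proteins bind DNA as heterodimers with a retinoid X receptor, whereas the glucocorticoid and oestrogen receptors act mainly as homodimers, the former after release from a chaperone complex in the cytoplasm. In T cells, retinoic acid promotes gut homing, glucocorticoids restrain activation and can trigger cell death, vitamin D restrains inflammatory cytokines, and liver X receptors govern cholesterol export.

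Promoters are shown for the 4 genes whose transcripts differed most between libraries, Rara, Rarg, Rxra and Vdr. The windows run from 250 bases before to 50 after a transcription start in RefSeq on GRCm38.p6, a later build than the mm9 named for the deposited values. The RefSeq promoters used here matched 8 of the 9 genes, all but Nr3c1, and the first listed start is shown. Each sequence reads 5′ to 3′ on the strand of its gene. Capitals mark 3 motifs on either strand: AGGTCA, the half-site of many nuclear receptors, GGGCGG, the GC box, and GCGTG, the core element bound by AhR. The Rara window lies at chr11:98937446-98937745 (+ strand), Rarg at chr15:102257473-102257772 (- strand), Rxra at chr2:27676951-27677250 (+ strand) and Vdr at chr15:97908247-97908546 (- strand).
Rara: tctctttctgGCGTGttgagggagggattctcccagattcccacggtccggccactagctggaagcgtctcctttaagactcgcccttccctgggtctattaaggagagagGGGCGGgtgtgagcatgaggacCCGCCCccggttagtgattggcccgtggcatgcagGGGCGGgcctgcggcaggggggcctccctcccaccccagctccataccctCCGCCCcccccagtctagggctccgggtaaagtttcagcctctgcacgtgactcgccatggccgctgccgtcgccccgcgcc
Rarg: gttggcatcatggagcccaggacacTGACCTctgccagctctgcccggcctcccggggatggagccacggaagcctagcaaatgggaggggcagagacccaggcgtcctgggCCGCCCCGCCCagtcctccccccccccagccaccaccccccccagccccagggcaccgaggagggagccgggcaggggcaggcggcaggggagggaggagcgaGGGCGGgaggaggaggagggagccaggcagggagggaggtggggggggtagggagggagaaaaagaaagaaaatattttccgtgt
Rxra: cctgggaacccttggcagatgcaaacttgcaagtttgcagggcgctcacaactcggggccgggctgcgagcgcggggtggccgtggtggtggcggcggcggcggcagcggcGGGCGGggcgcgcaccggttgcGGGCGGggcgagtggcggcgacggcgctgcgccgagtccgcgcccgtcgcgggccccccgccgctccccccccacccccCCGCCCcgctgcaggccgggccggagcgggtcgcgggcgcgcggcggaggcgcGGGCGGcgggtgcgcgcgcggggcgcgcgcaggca
Vdr: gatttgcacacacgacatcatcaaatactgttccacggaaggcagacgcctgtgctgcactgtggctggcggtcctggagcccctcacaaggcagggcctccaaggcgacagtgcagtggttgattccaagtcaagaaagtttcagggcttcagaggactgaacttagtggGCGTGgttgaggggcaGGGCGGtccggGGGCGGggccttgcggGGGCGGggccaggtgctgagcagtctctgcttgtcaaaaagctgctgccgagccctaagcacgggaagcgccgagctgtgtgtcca
GC boxes stood in all of them, 4 in Rara, 3 in Rarg, 4 in Rxra and 3 in Vdr, where 35.7% of 32851 RefSeq promoters hold at least 1. A GC content of 66.3, 70.0, 83.0 and 61.3% in these windows compares with a median of 52.7% over the same promoters. AGGTCA was found once, in Rarg (16.3% of promoters hold it), and GCGTG once each in Rara and Vdr (32.4%). In the Rarg window 2 of the GC boxes overlap, so the capitals run through both. Such features were not particular to the 4 windows shown. The Rxrb window held 2 GC boxes, 1 GCGTG and 68.7% GC, and the Ppard window 3, 1 and 68.3%. Those of Nr1h2 and Esr1 held none of the 3 motifs. A match to these letters is a description of the window and not evidence of binding.

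After transplant 7 of the receptors had lower values in CD4 cells and 8 in CD8 cells, and Rara had the lowest ratio in both. Over the 9933 genes introduced next, 54.1% and 49.0% had lower values. For log2 ratios 14.7 was first added to each normalised value, and a difference of 2-fold or more on that scale counts as a call. The receptors' median log2 ratio was -0.66 in CD4 and -1.0 in CD8, against -0.08 and 0.02 over 9933 genes whose mean value reached 73.3, which is 5 ppm of the average library total, a filter that 7 of the 9 receptors passed. Among those 7, Rara alone was called lower in CD4 and none was called higher, while 10.8% of the 9933 genes were called lower and 12.1% higher. In CD8, Rara, Rarg, Rxra and Nr3c1 were called lower and none higher, 4 of 7, while 11.0% of the 9933 genes were called lower and 15.0% higher. Vdr and Esr1 did not pass the filter, with mean values of 35.9 and 20.1. Counted over all 9 without the filter, CD4 had 1 higher (Vdr) and 1 lower, and CD8 had 0 higher and 5 lower, Esr1 being added to the 4. Over all 21705 listed genes the same rule called 7.74% higher and 6.63% lower in CD4, and 10.1% higher and 6.01% lower in CD8. A stricter rule, a counting interval wholly beyond 2-fold, left the same receptors among the 7, where it called 10.7% of the 9933 genes higher and 8.75% lower in CD4, and 12.9% higher and 8.73% lower in CD8.

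**Figure D1:**
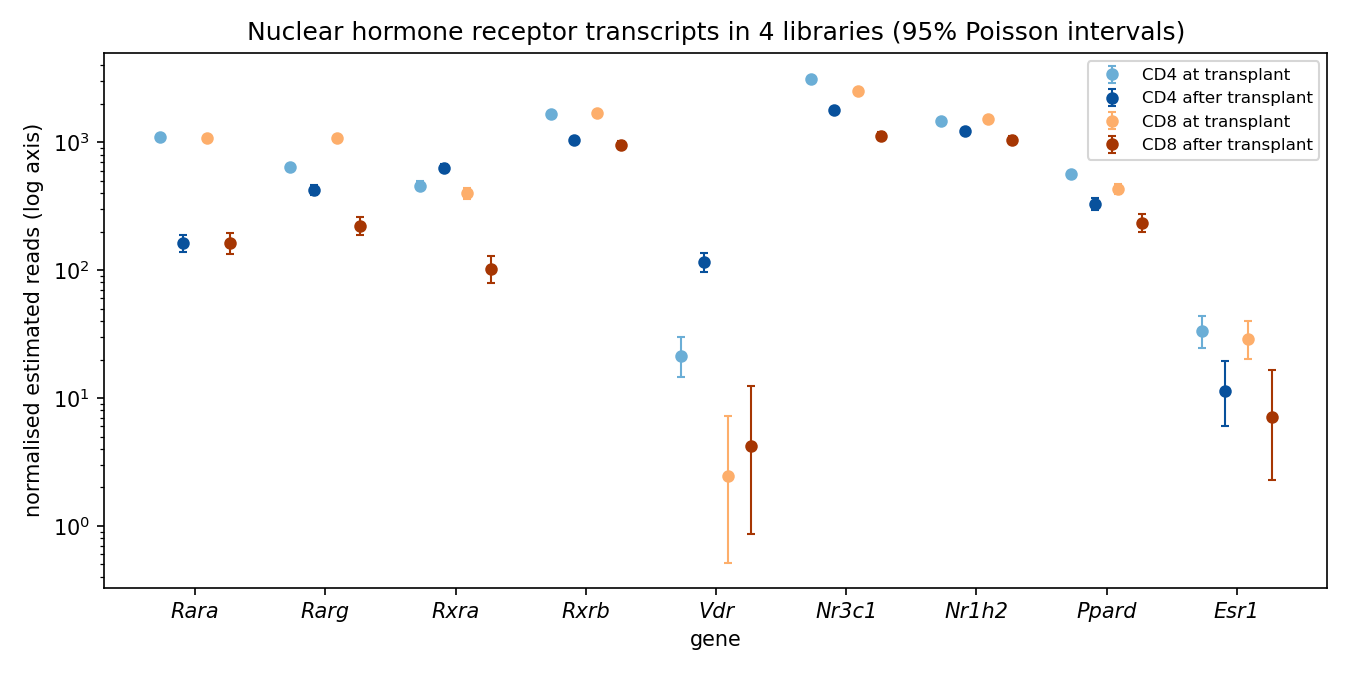
Normalised estimated reads (log axis) of the 9 receptor genes in the 4 libraries, with 95% Poisson intervals that cover counting error only. Rara stood near 1100 in both libraries at transplant and at 162 in both after it, while Rxra and Vdr were highest in the CD4 library after transplant.

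**Figure D2:**
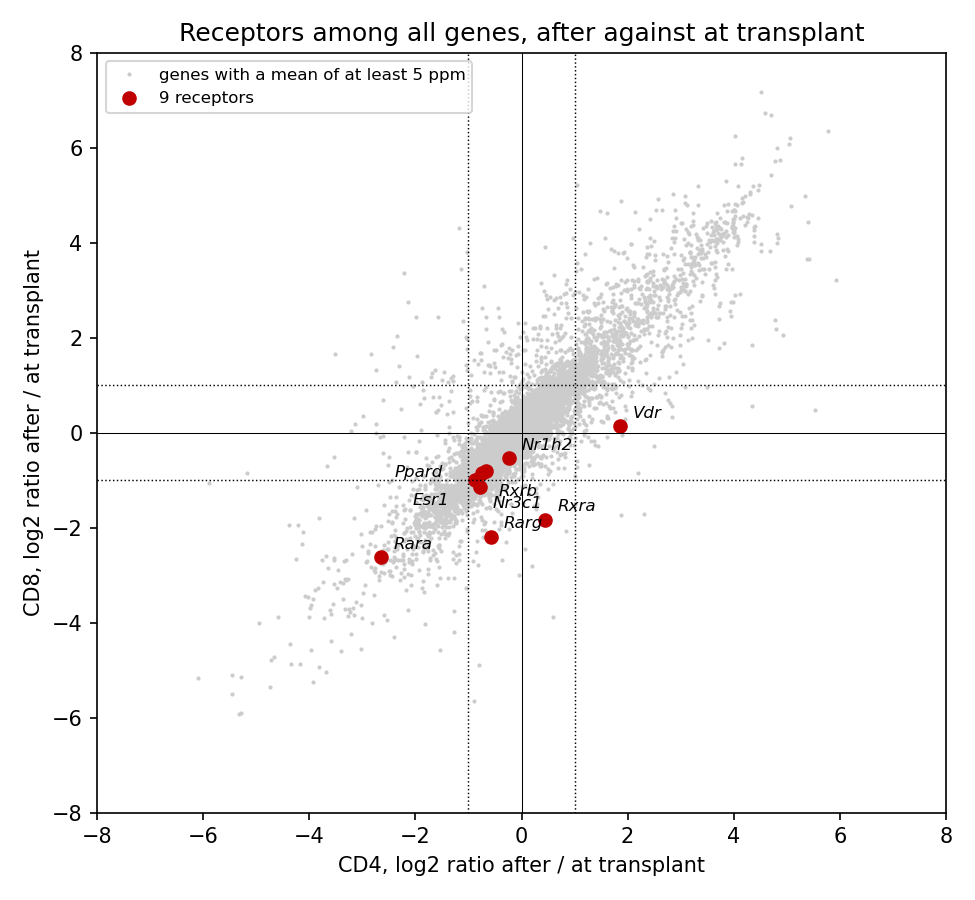
Log2 ratio after against at transplant in CD4 (x) and CD8 (y) for genes that passed the filter (grey) and the 9 receptors (red); dotted lines mark 2-fold. Rara lies at -2.65 and -2.62, whereas Rxra lies at 0.45 in CD4 and -1.83 in CD8.

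Rara (Entrez 19401), which encodes retinoic acid receptor alpha, was lower after transplant by nearly the same factor in both cell types. It stood at 1100.3 in the CD4 library at transplant and 162 after it, and at 1072 and 162 in the CD8 libraries. The libraries of the same day were alike in CD4 and CD8. The value after transplant was 6.77-fold lower in CD4 (95% counting interval 5.82 to 7.94) and 6.61-fold lower in CD8 (5.46 to 8.07). Of the 9933 genes, 1.1% had a lower ratio than Rara in CD4 and 1.5% in CD8. The CD4 ratio divided by the CD8 ratio was 0.976 (0.759 to 1.25). Genes of naive and recirculating T cells are known to be low in activated T cells, and all 10 listed ones were at least 2-fold lower in CD4 and in CD8 (medians -2.47 and -2.78). Among them Ccr7, the receptor for lymph node entry, had log2 ratios of -4.35 and -4.86, and Bach2, a repressor of effector genes, -4.59 and -3.88. In bulk RNA, fewer cells with a transcript and less transcript per cell cannot be told apart.

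Rarg (Entrez 19411), the gene of retinoic acid receptor gamma, differed between the cell types. CD4 cells held 635.5 on the earlier day and 419.9 on the later one, and CD8 cells held 1073 and 223. CD8 cells thus held the highest value at transplant and the lowest after it. The value after transplant was 1.51-fold lower in CD4 (1.35 to 1.69) and 4.81-fold lower in CD8 (4.08 to 5.72). The CD4 ratio was 3.18 times the CD8 ratio (2.60 to 3.90), and 2.72% of the 9933 genes had log2 ratios at least as far apart between the cell types.

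Rxra (Entrez 20181) encodes retinoid X receptor alpha, a shared partner of the heterodimers, and its ratio had opposite signs in the cell types. It stood at 458 at transplant and 630.3 after it in CD4 (689 and 719 estimated reads), and at 397 and 102 in CD8 (481 and 72 reads). The CD4 library after transplant was the highest of the 4 and the CD8 library after transplant the lowest. The ratio was 1.38 in CD4 (1.24 to 1.53), short of 2-fold, whereas in CD8 the value was 3.91-fold lower (3.05 to 5.08). The CD4 ratio was 5.39 times the CD8 ratio (4.10 to 7.15), and 1.17% of the 9933 genes were at least as far apart on the log2 scale.

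Macrophages also express Rxra. The summed level of 12 macrophage and monocyte markers went from 9505 at transplant to 4668 after it in CD4. In CD8 it went from 2205 to 4811, so that both changes were opposite in sign to those of Rxra. Itgam and Lyz2 held 1348 and 671 of the 2205. Over the 10 markers that passed the filter the median log2 ratio was -2.24 in CD4 and 1.76 in CD8, larger changes than those of the sums. All 12 were above 3 reads in both libraries after transplant. Between those libraries, 1 of the 10 markers that passed the filter, Cd68, a lysosomal protein gene, was called lower in CD4 than in CD8 and none was called higher (median -0.06). Cd68 stood at 115 in CD4 and 254 in CD8, and Csf1r, the lineage's growth factor receptor, at 114.0 and 95.9. Itgax, an integrin gene in the dendritic cell list, stood at 136 and 1119. The part of these cells in the Rxra values was not tested.

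Rxrb (Entrez 20182), the gene of retinoid X receptor beta, was the steadier of the heterodimer partners. It stood at 1649 in CD4 on the earlier day and 1039 on the later one, and at 1686 and 953.5 in CD8. Both later libraries were below both earlier ones. The value after transplant was 1.59-fold lower in CD4 (1.48 to 1.70) and 1.77-fold lower in CD8 (1.62 to 1.93), within 2-fold in both. The CD4 ratio was 1.11 times the CD8 ratio (0.995 to 1.25), against 5.39 for Rxra.

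Vdr (Entrez 22337), the vitamin D receptor gene, was detected above 3 reads in the CD4 libraries and not in CD8. It stood at 21.2 in CD4 at transplant (32 reads, Poisson interval 14.5 to 30.0 on the normalised scale) and at 116 after it (132 reads, 96.8 to 137). In CD8 it stood at 2.48 and 4.23, which is 3 reads in each library. Only the CD4 libraries were above the level of 3 reads, and the later one was the higher. The ratio after against at transplant was 5.45 in CD4 (3.68 to 8.28) and 1.71 in CD8 (0.229 to 12.8). Because the CD8 counts are so small, the CD4 and CD8 ratios cannot be separated at this depth (quotient 3.19, 0.403 to 24.7). The level itself was 27.3 times as high in CD4 as in CD8 after transplant (9.16 to 134).

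Macrophages are another known source of Vdr. Their markers summed to 9505 in CD4 and 2205 in CD8 at transplant, where Vdr stood at 21.2 and 2.48. Of the 10 that passed the filter, 9 were called higher in CD4 on that day (median 3.75), against 4.92% of the 9933 genes. After transplant the markers summed to 4668 in CD4 and 4811 in CD8 (median -0.06), where Vdr stood at 116 and 4.23. Lyz2, the lysozyme gene, made up 2685 and 2464 of these later sums. Neutrophil markers summed to 18794, 31990.4, 3356 and 27566 in CD4 on the earlier and later day and then in CD8. Erythroid markers summed to 551, 3469, 128 and 2885 in the same order. B cell markers summed to between 224 and 425 in the 4 libraries, dendritic cell markers to between 505 and 2944, and NK cell markers to between 787.5 and 2126. Single genes made up most of the 2 highest of these sums. Itgae, an integrin gene, held 2581 of the 2944, in CD8 at transplant. Eomes, a transcription factor gene, held 1858 of the 2126, in CD8 after transplant. Of 7 B cell markers 6, 4, 4 and 2 were above 3 reads in CD4 on the earlier and later day and then in CD8. Among them Cd22 reached 353 in CD4 after transplant and Cd79b 309 in CD8 at transplant, while Pax5, a defining factor of B cells, was at 0 in 3 of the 4 libraries. Of 7 NK cell markers 7, 4, 7 and 4 were above 3 reads, and Ncr1, an activating receptor of NK cells, went from 172.0 at transplant to 0 after it in CD4. Eomes went the other way in CD4, from 295.5 to 687.3. Of the 3 NK cell markers that passed the filter, 1 was called higher and 2 lower after transplant in CD4. T cell markers summed to between 64973 and 105132, and Cd4 and Cd8a followed the sort. The part of these other cells in the receptor values was not tested.

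Nr3c1 (Entrez 14815), the glucocorticoid receptor gene, had the highest normalised value of the 9 in every library, before division by transcript length. CD4 cells held 3120.2 on the earlier day and 1796 on the later one, and CD8 cells held 2495 and 1123. Each later library was below both earlier ones, and CD8 was below CD4 on both days. The value after transplant was 1.74-fold lower in CD4 (1.65 to 1.83) and 2.22-fold lower in CD8 (2.05 to 2.41), the latter just past 2-fold. The CD4 ratio was 1.28 times the CD8 ratio (1.16 to 1.41), a gap that 28.5% of the 9933 genes equalled or exceeded.

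Nr1h2 (Entrez 22260) encodes liver X receptor beta, a sensor of oxysterols, and varied least. CD4 cells went from 1457 to 1228 and CD8 cells from 1519 to 1039.9. The highest of these values was 1.46 times the lowest. The value after transplant was 1.19-fold lower in CD4 (1.11 to 1.27) and 1.46-fold lower in CD8 (1.34 to 1.59).

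Ppard (Entrez 19015), the gene of a fatty acid receptor that drives fat oxidation in muscle, stood at 559 and 329 in CD4 and at 430.3 and 234 in CD8. Both later libraries were below both earlier ones. It was 1.70-fold lower in CD4 (1.5 to 1.93) and 1.84-fold lower in CD8 (1.54 to 2.20).

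Esr1 (Entrez 13982), the gene of oestrogen receptor alpha, was scarce, with 50, 13, 35 and 5 reads in CD4 on the earlier and later day and then in CD8. These are normalised values of 33.2, 11.4, 28.9 and 7.05. Both libraries at transplant were above both later ones, and their Poisson intervals did not meet within a cell type. The value after transplant was 2.91-fold lower in CD4 (1.56 to 5.85) and 4.10-fold lower in CD8 (1.60 to 13.4), so that counting error alone spans 2-fold. On the scale with 14.7 added, its log2 ratios were -0.88 and -1.0, and the CD8 value was -0.97 with equal library totals and -0.41 with a pseudocount 4 times as large, under 2-fold in both.

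Between CD4 and CD8 at transplant no receptor that passed the filter differed by 2-fold, where 4.92% of the 9933 genes were called higher and 1.48% lower in CD4. Under the stricter rule 4.29% were called higher and 1.25% lower, and again no receptor. The plain ratio of CD4 to CD8 ranged from 0.592 (0.544 to 0.644) for Rarg to 1.30 (1.16 to 1.45) for Ppard among them. Rara was at 1.03 (0.954 to 1.1), and its log2 ratio of 0.04 became -0.12 under trimmed mean of M-values scaling. Vdr, outside the filter, was called higher in CD4, at 8.58 times the CD8 level (2.68 to 43.8), where the rule called 4.2% of all listed genes higher and 0.875% lower. With a pseudocount 4 times as large its log2 ratio went from 1.07 to 0.39, under 2-fold.

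After transplant the receptors stood higher in CD4 than in CD8 or level with it. Of the 7, only Rxra passed 2-fold and none was called lower, where 2.42% of the 9933 genes were called higher in CD4 and 0.956% lower. Under the stricter rule Rxra was again the only one, with 1.52% of genes higher and 0.745% lower. Rxra stood at 630.3 against 102, a ratio of 6.21 (4.87 to 8.02), and 99.8% of the 9933 genes had a lower log2 ratio. Rarg had a ratio of 1.88 (1.57 to 2.27) and Nr3c1 of 1.60 (1.47 to 1.74). Rara, at 162 in both, had a ratio of 1.0 (0.788 to 1.27). Without the filter Vdr joined Rxra, 2 of 9, where 1.73% of all listed genes were called higher and 0.866% lower.

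Per kilobase of transcript, Nr1h2 held the highest level of the 9 in every library, followed by Rxrb and Nr3c1. Lengths were those of the longest protein-coding transcript in GENCODE M21, and no receptor shared exon bases with another gene of its basic set. Nr1h2 stood at 729, 614, 760 and 520.2 normalised reads per kilobase in CD4 at, CD4 after, CD8 at and CD8 after transplant. Rxrb stood at 628, 395, 642 and 363, and Nr3c1 at 485, 279, 388 and 174. Rara went from rank 4 at transplant in CD4, at 325, to rank 7 after it, at 48.0, and from rank 5 (317) to rank 6 (47.9) in CD8. Rxra went from rank 7 (93.3) to rank 5 (129) in CD4 and was at rank 7 on both days in CD8, at 81.0 and 20.7. Vdr and Esr1 held the last places in all libraries, Vdr at 26.5 per kilobase in CD4 after transplant and at 0.567 to 4.86 in the other libraries. With the median transcript length in place of the longest, the first 3 places and the last 2 were the same in each library, whereas Ppard passed Rarg in all but the CD8 library at transplant, and Rxra passed Rarg in CD4 after transplant. Lengths used by the authors' quantification are not known here.

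**Figure D3:**
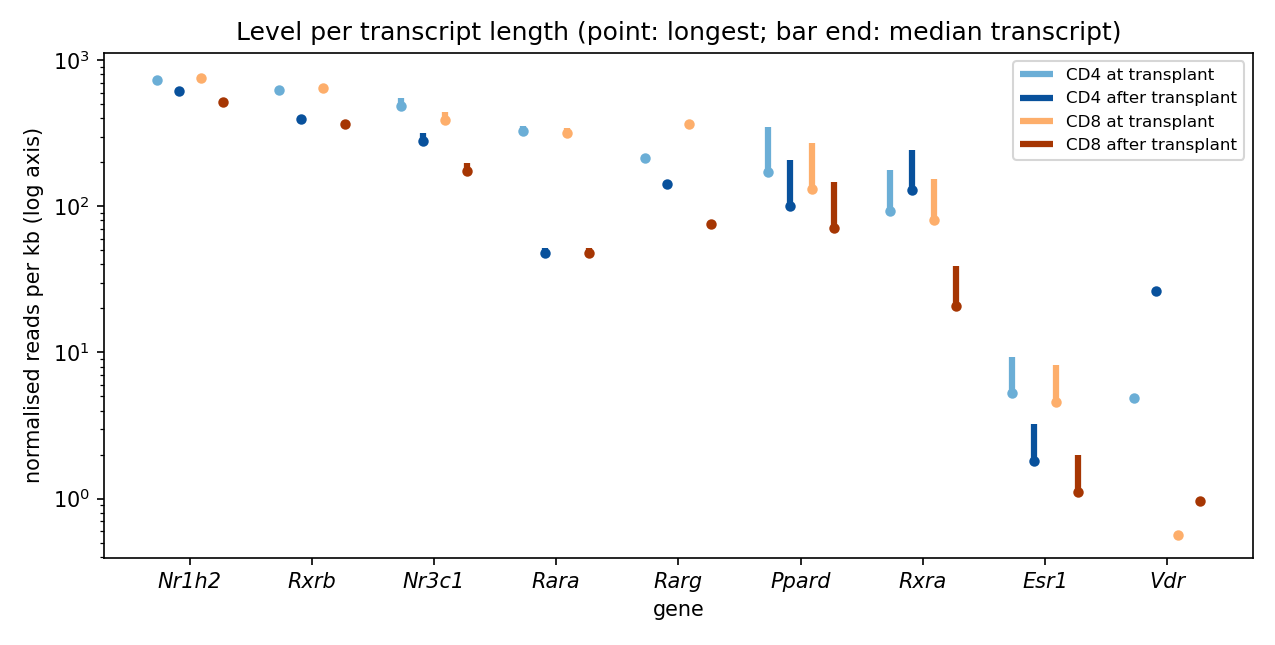
Normalised reads per kilobase (log axis) for each receptor and library; the point uses the longest protein-coding transcript and the end of the bar the median one. Nr1h2, Rxrb and Nr3c1 lead in all 4 libraries, and Vdr and Esr1 are lowest.

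The genes closest in pattern to the receptors that passed 2-fold were found by the root mean square difference of log2 values centred over the 4 libraries. This measure over 4 points describes shape only, and many genes can share a simple shape. Foxp1, a transcription factor of quiescent T cells, lay closest to Rara, at 0.095. Its values were 4899 and 799 in CD4 and 4237 and 694 in CD8. Card6, a caspase recruitment domain gene, came next, at 0.102. For Rxra the closest were A530032D15Rik (0.098) and Egr3, an early growth response factor induced by T cell receptor signalling (0.192). Egr3 stood at 548 and 681 in CD4 and at 425 and 158 in CD8. Only 2 genes lay within 0.25 of Rxra and 12 within 0.25 of Rarg, whose closest were Mir715 (0.085) and Btbd11 (0.138), against 50 for Rara. No gene lay within 0.25 of Vdr, the nearest being Plcb4, a phospholipase C gene (0.289), and Cdk5r1, an activator of a cyclin-dependent kinase (0.318). Nr3c1 had 864 genes within 0.25, led by Zfp169 (0.009) and Lphn1 (0.046), and Esr1 had 1695, led by Rb1cc1 (0.014) and Cdk2ap2 (0.018). These log2 values include the added 14.7, which flattens the patterns of Esr1 and Vdr, both below the filter. Plain ratios after against at transplant were 0.343 in CD4 and 0.244 in CD8 for Esr1. Rb1cc1 stood at 1778 and 979.2 in CD4 and at 1605 and 795.5 in CD8, so its plain values fell less.

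Genes of proteins that work with the receptors had medians below 0 in both cell types. Counts in this and the later lists stand beside the shares of the 9933 genes given above, 12.1% higher and 10.8% lower in CD4, and 15.0% and 11.0% in CD8. Of 15 listed coactivators 14 passed the filter, with 3 called lower in CD4 and 4 in CD8 and none higher (medians -0.56 and -0.51). The related acetyltransferases Crebbp and Ep300 were among them. Crebbp stood at 2017 and 687 in CD4 and at 1725 and 458 in CD8, and Ep300 at 3460.2 and 1520.1 in CD4 and at 3055 and 1324 in CD8. Ppargc1b, a coactivator of mitochondrial genes, had log2 ratios of -1.80 and -1.77. Ncoa1, a steroid receptor coactivator, had 0.09 and 0.41. None of the 10 corepressor genes was called (medians -0.47 and -0.44), though 1 was called lower in CD8 under trimmed mean of M-values and median of ratios scaling. Ncor1, which holds unliganded receptors silent, stood at 8702 and 4601 in CD4 and at 8158 and 4289 in CD8, with log2 ratios of -0.92 and -0.93. Lcor, a ligand-dependent corepressor, had -0.70 and -0.76.

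**Figure D4:**
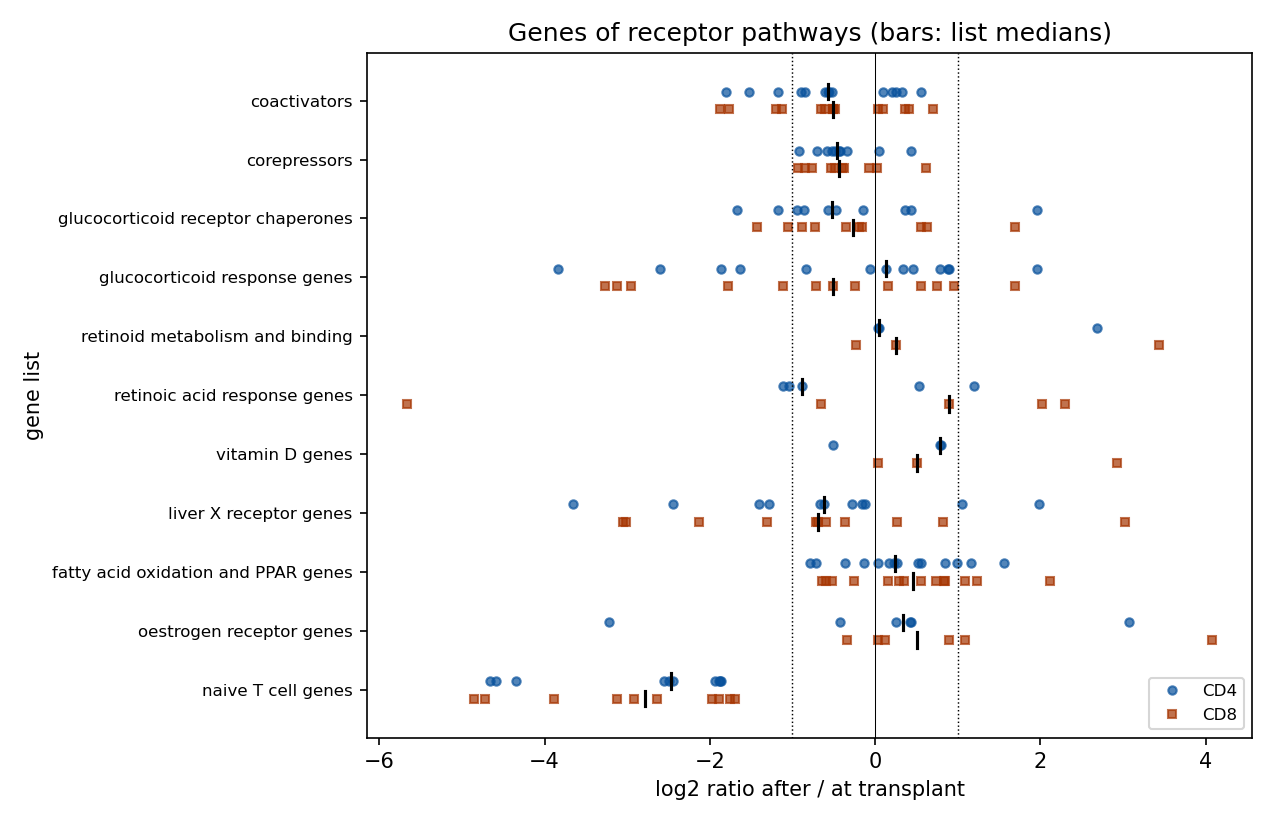
Log2 ratio after against at transplant of list genes that passed the filter, CD4 as circles and CD8 as squares, with black bars at list medians and dotted lines at 2-fold. The naive T cell list lies wholly below -1, and Fkbp5 is the gene at 1.96 and 1.69 in both glucocorticoid lists.

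Genes around the glucocorticoid receptor differed in both directions. In CD4 and in CD8, 1 of 10 chaperone genes was called higher and 2 were called lower, with medians of -0.52 and -0.27. With equal library totals only 1 was called lower in CD8. Fkbp5, an inhibitory co-chaperone of the receptor and a classical glucocorticoid-induced gene, stood at 1353 and 5318 in CD4 and at 1107 and 3592 in CD8. It was thus higher after transplant in both, by ratios of 3.93 (3.74 to 4.13) and 3.25 (3.04 to 3.47). Fkbp4, the co-chaperone that it competes with, stood at 4550.5 and 1424 in CD4 and at 4575 and 1694 in CD8, and Stip1, which links chaperones, had log2 ratios of -1.17 and -1.05. Of 13 glucocorticoid response genes that passed the filter, 2 of which are in other lists, 1 was called higher in each cell type, Fkbp5 again, and 4 and 5 were called lower (medians 0.13 and -0.51). With equal library totals the number called higher was 3 in CD4 and 2 in CD8. Tsc22d3, the gene of the glucocorticoid-induced leucine zipper, stood at 5674 and 1808 in CD4 and at 5495 and 1592 in CD8. Its ratios were 0.319 (0.304 to 0.334) and 0.290 (0.272 to 0.309), so that this pair of classical response genes differed in direction. Tgfbr3, a TGF-beta coreceptor, had log2 ratios of -3.84 and -3.27, Pik3ip1, a restraint on PI3 kinase, -2.60 and -2.96, and Il7r, the interleukin-7 receptor, -1.86 and -3.12. Il7r is also in the naive list.

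Of the 20 genes of retinoid metabolism and binding only 3 passed the filter. Fabp5, a carrier of fatty acids and retinoic acid, stood at 86.3 and 631 in CD4 and at 41.3 and 590 in CD8, and was called higher in both. Rdh10 and Rdh11, enzymes of retinol oxidation, stayed within 2-fold (log2 ratios 0.05 and 0.03 in CD4, -0.23 and 0.25 in CD8). Of 12 retinoic acid response genes 5 passed, with 1 higher and 2 lower in CD4 and 2 higher and 1 lower in CD8 (medians -0.89 and 0.89). The CD4 calls were unsteady: the lower count was 0 with equal library totals and 1 with median of ratios scaling or the larger pseudocount, which also left none called higher. Ccr9, the small intestine homing receptor, stood at 233 and 119 in CD4 and at 3252 and 49.8 in CD8, a log2 ratio of -0.89 and -5.66. Itgb7, which encodes the beta-7 subunit of integrins for entry into the gut, had -1.12 and -0.65. Itga4, the alpha-4 integrin gene in the same list, had 0.53 and 0.89, opposite in sign to Itgb7. Hic1, a retinoic acid-responsive repressor, had 1.2 and 2.30.

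The lists of the other receptors gave mixed counts. Of 10 vitamin D genes 3 passed the filter, and Cyp24a1, the classical vitamin D receptor target, was at 0 in all 4 libraries. Camp, an antimicrobial peptide gene that is also in the neutrophil list, had log2 ratios of 0.80 and 2.93. It was the single gene of the list called higher, in CD8, where the summed neutrophil markers were 3356 at and 27566 after transplant. Dhcr7, which consumes the vitamin D precursor, had -0.51 and 0.04, and Bsg 0.79 and 0.51. Of 11 liver X receptor genes that passed, 2 were higher and 4 lower in CD4, and 1 and 4 in CD8 (medians -0.62 and -0.69). Abca1, a cholesterol exporter, stood at 452 and 177 in CD4 and at 619 and 62.1 in CD8. Arl4c, a small GTPase, had log2 ratios of -2.44 and -3.01, Lpl, lipoprotein lipase, 1.98 and 3.02, and Srebf1, a driver of fatty acid synthesis, -0.12 and -0.36. Apoe, a lipid carrier that macrophages express, had -3.66 and -0.71.

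Of 14 genes of fatty acid oxidation and the PPAR list, 2 were higher in CD4 and 3 in CD8 and none was lower (medians 0.25 and 0.46). These are 2 and 3 of 14 genes, near the shares of all genes called higher. The CD4 count was 4 with equal library totals and 1 with the larger pseudocount. Acadl, an acyl-CoA dehydrogenase, stood at 790 and 2359.9 in CD4 and at 722 and 3195 in CD8. Cpt1a, which commits fatty acids to mitochondria, had log2 ratios of 0.99 and 1.23, and Angptl4, a PPAR target, 1.16 and 0.84. These ratios were positive, whereas those of Ppard were -0.74 and -0.84. Of 6 oestrogen receptor genes that passed, 1 was higher and 1 lower in CD4, and 2 and 0 in CD8 (medians 0.33 and 0.51). Under trimmed mean of M-values scaling 1 was higher in CD8. Ccnd1, a cyclin of the G1 phase, had log2 ratios of -3.22 and 0.03. Cited2, a transcriptional cofactor, had 0.43 and 1.09. Tff1, a trefoil peptide gene of the stomach lining and an oestrogen target in human breast cells, was at 0 in both libraries at transplant and at 109 and 234 in CD4 and CD8 after it. The later values were 54.6 and 94.4 times a floor of 3 reads per library, and the lower 95% counting bounds of the ratios were 43.7 and 76.0.

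Of the other 40 nuclear receptor genes 10 passed the filter. Nr4a2 and Rora were called higher in both cell types, and 3 were called lower in CD4 and 2 in CD8 (medians -0.44 and -0.33). Thra, the thyroid hormone receptor alpha gene, stood at 412 and 53.2 in CD4 and at 348 and 40.9 in CD8. Its log2 ratios of -2.65 and -2.71 lay beside the -2.65 and -2.62 of Rara. Nr1d2, a circadian repressor, had -1.32 and -1.81, and Nr2c1, an orphan receptor, -1.14 and -0.78. Nr4a2, an orphan receptor induced by T cell receptor signalling, stood at 35.2 and 387 in CD4 and at 45.4 and 1275 in CD8. Nr4a2 was also the one gene of the list called lower in CD4 than in CD8 after transplant. Rora, the retinoid-related orphan receptor alpha gene, stood at 64.4 and 354 in CD4 and at 27.3 and 333 in CD8. Nr4a1, a relative of Nr4a2, stayed within 2-fold after against at transplant (-0.53 and -0.11) and was called higher in CD4 than in CD8 at transplant, with a log2 ratio of 1.22.

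**Figure D5:**
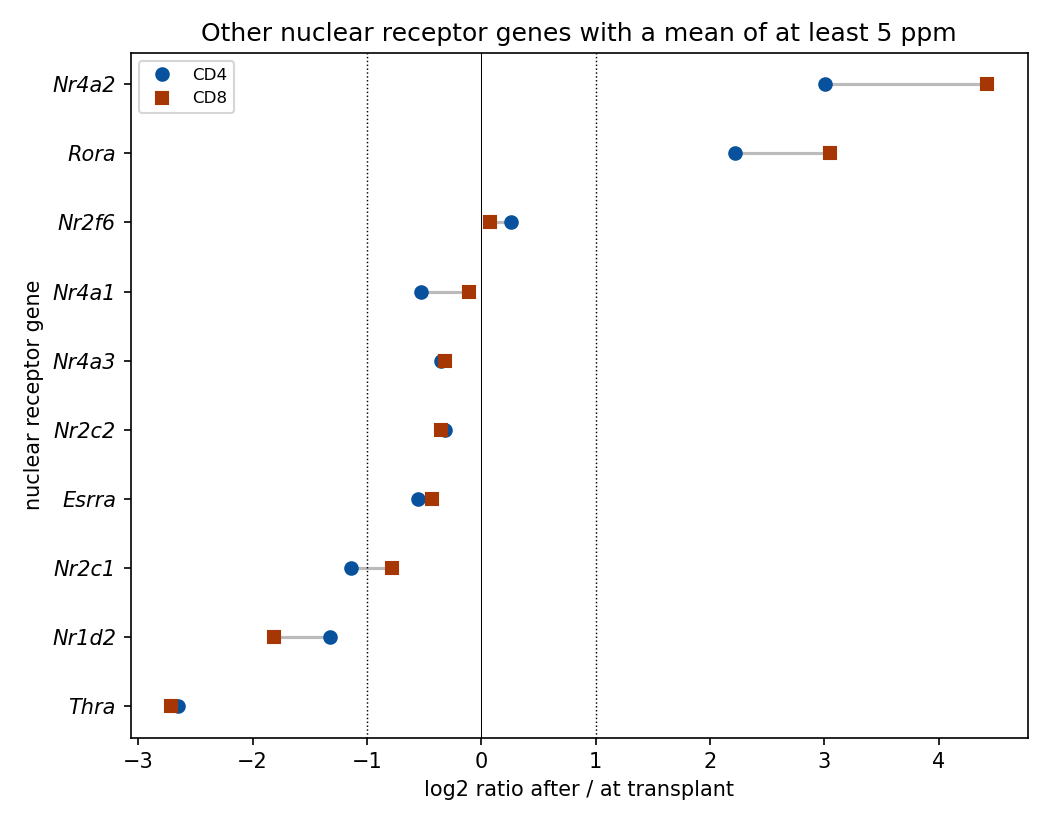
Log2 ratio after against at transplant of the 10 other nuclear receptor genes that passed the filter, CD4 as circles and CD8 as squares, with dotted lines at 2-fold. Nr4a2 and Rora lie above 2 in both cell types and Thra below -2.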

How the data were processed

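The deposited table holds 1 normalised signal value per gene and library: estimated reads, scaled so that the upper quartile of genes above 0 lies between 998 and 999.6. This was read from the values. RSEM 1.1.13, SAMtools 1.2 and mm9 are named in the submitters' processing notes. The aligner, annotation and scaling step are not given in the sources used here. Values are multiples of a step worth 1 read (0.664, 0.877, 0.826 and 1.41 in CD4 at, CD4 after, CD8 at and CD8 after transplant). Divided by it, 86.4 to 87.7% of genes above 0 lay within 0.1 of a whole number, so no count test was run. The table also holds 2 empty columns. Depth was 23633545, 16130851, 17972481 and 9873852 estimated reads.

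Log2 ratios added 14.7 (1 ppm of the mean library total). Ratios of plain values carry 95% exact conditional binomial intervals on rounded reads, and quotients of ratios exact conditional odds-ratio intervals (scipy 1.17.1). The procedures were tested on simulated data. The rule for named genes took the receptors, other nuclear receptors past 2-fold and the 3 genes per list with the largest mean change. It also took a few classical targets and the 2 nearest patterns. Itga4 is given besides, next to Itgb7. Members and lists were chosen with earlier results of these data known. Other scalings, pseudocounts and filters were tried.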

Additional observations from a re-analysis of the deposited data

Results flagged for a closer look

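The 9 receptors and the genes named by rule from the pathway lists made 53 in all. Rxra was the one of them with opposite directions in the cell types after against at transplant and counting intervals off 1 in both. Its log2 ratio was 2.28 higher in CD4 than in CD8, from 0.45 and -1.83. With 1 library per group the difference between the cell types was not tested against replicate spread. Estimated reads were 719 in CD4 after transplant and 72 in CD8. Marker genes of other cells were not among the 53, and several had opposite directions: Lyz2 had ratios of 0.766 in CD4 and 3.67 in CD8, Cd68 of 0.607 and 5.69, and Klrb1c, an NK cell receptor gene, of 0.203 and 2.53. Cd8a had ratios of 1.67 and 0.853. Genes named as nearest patterns were not among the 53 either. The 2 nearest to Rxra, picked for a like pattern, had its directions. Egr3 stood at 548 and 681 in CD4 and at 425 and 158 in CD8. A530032D15Rik stood at 108 and 160 in CD4 and at 112 and 19.6 in CD8. List genes were mostly named by the mean of their CD4 and CD8 log2 ratios, in which opposite directions cancel. The rule thus tended to leave out genes like Rxra, and its place as the only one of the 53 partly reflects that. List genes left out with opposite directions included Tgm2, a retinoic acid response gene, with ratios of 0.456 and 7.47. Among the glucocorticoid response genes left out, Nfkbia had 1.38 and 0.700, and Socs1 1.27 and 0.604.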

How the results depend on the processing

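No paired analysis was possible because each group holds 1 library. Without the filter on low values, the number of receptors called higher became 1 in CD4 after against at transplant, 1 in CD4 against CD8 at transplant and 2 in CD4 against CD8 after transplant, in each case by adding Vdr. The other 69 of 72 receptor counts under the alternatives stayed within 1.5 times. Of 144 log2 ratios of single receptors under other scalings and pseudocounts, 131 shifted by no more than a counting margin. That margin is the mean log2 distance from a plain ratio to the bounds of its counting interval. The other 13 moved further, and 0 that had passed 2-fold changed sign. A shift within the margin does not place the value inside the interval. Vdr in CD4 against CD8 after transplant, for example, went from 2.79 to 1.47 with the larger pseudocount and is among the 131. Vdr in CD4 went from 1.86 to 1.13, and Esr1 in CD8 from -1.0 to -0.41, with a pseudocount 4 times as large. Nr3c1 in CD8 ranged from -1.24 to -1.05. Trimmed mean of M-values scaling moved the median of all genes between CD4 and CD8 at transplant from 0.14 to -0.02, and equal library totals moved that of CD4 after against at transplant from -0.08 to 0.07. Of 384 list counts, 33 moved by over 1.5 times. Depth limits Vdr in CD8 and Esr1, which had 3 to 50 reads.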
